A study of Mus musculus with 10 samples.

Results

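Chemokine receptors of tissue homing are described here in CD4+CD25+ regulatory T (Treg) cells of mice with and without the phosphatase SHP-1. The 9 genes are Ccr1, Ccr2, Ccr4, Ccr8, Ccr9, Cxcr3, Cxcr4, Cxcr5 and Cxcr6, and they were taken by name, with every probe set that the array's annotation gives to 1 of them alone. That gave 18 of the 45037 probe sets tested, and 9 of the 18193 genes named on the array. All 9 genes were measured, and the tests used no filter on low values. The filter tried as an alternative left out 6 of the 18 probe sets, among them the sole probe sets of Ccr4, Ccr8 and Cxcr5.

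The study measured gene expression on Affymetrix arrays in Treg cells from the combined lymph nodes of BALB/c mice aged 17 to 19 days. Wild-type mice (WT, 4 arrays) were compared with mice carrying 1 knockout allele of SHP-1 (he, heterozygous, 3 arrays) and with mice carrying the knockout on both alleles (me, homozygous, the motheaten phenotype, 3 arrays). The knockout is stated for the mouse and not for 1 cell type and the cells were neither treated nor cultured. RNA was amplified from 20 ng of total RNA per sample; the labels call the arrays of a group biological replicates and say nothing more of animals or pools, so the p-values measure the spread between these samples.

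Chemokine receptors are G protein-coupled receptors that let a moving T cell follow gradients of secreted chemokines. The set of receptors that a Treg cell carries helps to decide where it goes: Ccr4 and Ccr8 are linked with skin and inflamed tissue, Ccr9 with the small intestine, Cxcr3 with sites of interferon-driven inflammation, Cxcr5 with B cell follicles, Cxcr4 with bone marrow and lymphoid stroma, and Ccr1, Ccr2 and Cxcr6 with inflamed or peripheral tissue. SHP-1, encoded by Ptpn6, is a tyrosine phosphatase that restrains signalling in blood cells, including signals from chemokine receptors.

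The promoters of the 3 genes whose genotype differences are described first are shown as the 250 bases before the annotated start of the gene, from RefSeq on build GRCm38.p6, in the direction of transcription. Capitals mark a RUNX motif (TGTGGT or its complement ACCACA) and, in Cxcr3, ETS motifs (GGAAGT or its complement ACTTCC). Cxcr6 lies at chr9:123806227-123806476 on the + strand, Ccr1 at chr9:123968693-123968942 on the - strand and Cxcr3 at chrX:101734148-101734397 on the - strand.
Cxcr6: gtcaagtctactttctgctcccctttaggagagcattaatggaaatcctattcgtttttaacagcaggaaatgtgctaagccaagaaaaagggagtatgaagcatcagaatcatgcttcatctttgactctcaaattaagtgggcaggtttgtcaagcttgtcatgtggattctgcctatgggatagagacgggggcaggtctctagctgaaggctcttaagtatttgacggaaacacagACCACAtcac
Ccr1: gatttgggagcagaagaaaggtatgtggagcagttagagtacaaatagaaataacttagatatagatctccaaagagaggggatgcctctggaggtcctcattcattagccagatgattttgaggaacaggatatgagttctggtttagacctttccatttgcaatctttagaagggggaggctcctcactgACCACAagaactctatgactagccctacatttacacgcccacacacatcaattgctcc
Cxcr3: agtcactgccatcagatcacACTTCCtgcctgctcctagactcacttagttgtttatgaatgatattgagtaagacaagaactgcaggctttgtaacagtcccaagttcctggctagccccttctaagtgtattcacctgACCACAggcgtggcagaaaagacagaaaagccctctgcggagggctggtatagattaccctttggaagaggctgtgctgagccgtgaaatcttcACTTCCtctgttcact
Each motif was searched on both strands, and the RUNX letters stood in 3 of the 8 member promoters that had an entry, against 14.0% of 32851 promoters of the same length. The ETS letters stood in 2 of 8, those of Cxcr3 and Ccr4, against 19.7% of all. The GATA letters AGATAA stood in 2 of 8, those of Ccr2 and Ccr8, against 9.99%. The T-box letters AGGTGTGA and the STAT letters TTCNNNGAA were in none of the 8, against 1.12% and 7.02% of all promoters. These are matches of letters within this window only. In the genome, 7 of the 9 genes share chromosome 9, in the order Cxcr5, Ccr4, Ccr8, Ccr9, Cxcr6, Ccr1 and Ccr2, while Cxcr4 is on chromosome 1 and Cxcr3 on chromosome X.

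Values below are normalised log2(intensity + 32), called log2 intensity, in which 1 unit is a doubling; the added 32 makes differences of dim probe sets smaller. A difference is given as the first group's mean minus the second's, with its standard error (SE). The arrays fell into 2 sets by their correlation over all probe sets: set A held WT 1, WT 2, he 1, me 1 and me 3, and set B held WT 3, WT 4, he 2, he 3 and me 2. Each set held all 3 genotypes, and the differences that stood out are therefore given also with the array set as a block and within each set. Of the arrays in set A, me 3 correlated best with those of set B. By Xist and Eif2s3y, the male arrays were WT 2 and WT 4 with me 1 and me 2, and every he array was female. The ratio of the 3' to the 5' Gapdh control probe set was 10.9, 9.92 and 13.8 in me 1, 2 and 3, and 7.84 to 9.71 in the other arrays. Its part in the results was not tested.

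Ptpn6 itself followed the labels. At its probe set 1460188_at the values were 9.22, 9.08, 9.62 and 9.13 in WT 1 to 4, 8.75, 8.71 and 8.98 in he 1 to 3, and 8.05, 8.31 and 8.17 in me 1 to 3, and the me arrays did not overlap with the WT or he arrays. The difference of me minus WT was -1.09 ± 0.14 (SE), a 2.12-fold lower signal, and he minus WT was -0.45 ± 0.14. At 1456694_x_at, me minus WT was -0.72 ± 0.10 and he minus WT -0.32 ± 0.10. Neither probe set passed the adjusted threshold in limma in me against WT (adjusted p of 1.00 at both, and of 0.0900 and 0.0559 with the array set as a block), although the 2-sided exact permutation p was 0.0571 at both, the smallest that 4 against 3 arrays allow. The Treg markers lay high on the arrays: Foxp3 above 97.9% of probe sets, Il2ra above 95.7% and Cd4 above 90.6%. Fewer cells of a type in a sample and less RNA per cell cannot be told apart in these bulk samples.

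Among the homing receptors, 3 stood out by size of difference in me Treg cells: Cxcr6 was lower than in WT, and Ccr1 and Cxcr3 were higher. None of the 18 probe sets passed an adjusted p of 0.05 in limma, with or without the array set as a block, in any of the 3 comparisons. Over all probe sets, 0% were called in me against WT without the block and 0.00666% with it. Each of the other 2 comparisons had 0% in both fits. At an unadjusted p under 0.05, 2 of the 18 passed in me against WT (Cxcr6 1422812_at and Ccr1 1419609_at), where 0.622% of all probe sets did. With the block 4 of 18 passed, Cxcr3 and Cxcr6 1425832_a_at being the others, where 4.29% of all did. In he against WT the counts were 0 of 18 (0.298% of all) and 2 of 18 with the block (2.13%), namely Ccr8 and Ccr9 1436065_at. In me against he they were 1 of 18 (0.668% of all), Cxcr6 1422812_at, and 3 of 18 with the block (3.21%), which added Ccr2 1421186_at and Ccr9 1442758_at.

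The direction was mixed. In me against WT, 12 member probe sets were higher and 6 lower, with a median difference of 0.07 beside a median of -0.00 and 49.9% higher over all probe sets. The differences ran from -0.71 to 0.60. With the block, 10 were higher and the median was 0.04. In he against WT, 11 were higher and 7 lower, from -0.17 to 0.36, with a median of 0.07 beside 46.0% higher over all probe sets. In me against he, 9 were higher and 9 lower, from -0.66 to 0.51. The comparisons share arrays, so their values are not independent of each other.

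**Figure D1:**
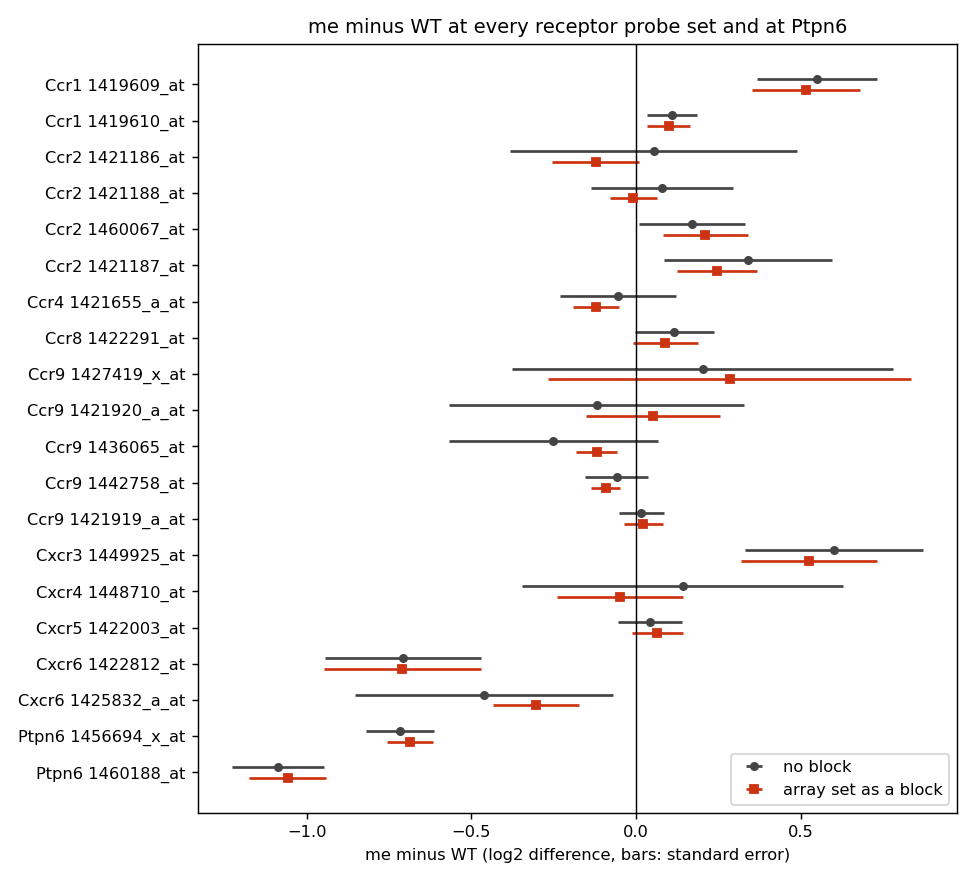
Difference of me minus WT in normalised log2 intensity at each of the 18 receptor probe sets and at Ptpn6, without and with the array set as a block; bars are standard errors from limma. Cxcr6 1422812_at lies at -0.71 in both fits, while Ccr2 1421186_at moves from 0.05 to -0.12 and its standard error shrinks.

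Cxcr6, the receptor of the membrane-bound chemokine Cxcl16 and a marker of effector T cells in liver and other tissues, was lower in all 3 me arrays than in any WT array at its brighter probe set. At 1422812_at the values were 9.51, 8.94, 9.60 and 9.11 in WT 1 to 4, 9.33, 9.66 and 8.73 in he 1 to 3, and 8.79, 8.52 and 8.44 in me 1 to 3. The lowest WT value, WT 2, was above the highest me value, me 1, and he 3 lay just below me 1. The means were 9.29 ± 0.32 (SD, n = 4) in WT, 9.24 ± 0.47 (SD, n = 3) in he and 8.59 ± 0.18 (SD, n = 3) in me. Me minus WT was -0.71 ± 0.24 (SE), a 1.63-fold lower signal, with an unadjusted p of 0.0154 and an adjusted p of 1.00 in limma. The 2-sided exact permutation test over arrays also gave p = 0.0571. Cxcr6 1422812_at was the only one of the 18 probe sets whose me and WT groups did not overlap in the lower direction, beside 0.835% of all probe sets, and none did in the higher direction, beside 0.804%. In he against WT no member's groups lay apart, beside 0.469% of all probe sets apart upwards and 0.573% downwards. In me against he no member's groups lay apart either, beside 1.62% and 1.1%.

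The difference at 1422812_at had the same direction in both array sets, -0.61 within A and -0.84 within B, and stood at -0.71 ± 0.24 with the block. The array set accounted for 2.01% of the sum of squares over the 10 arrays at this probe set and genotype for 53.0%. Loss of 1 allele left the mean near WT: he minus WT was -0.05 ± 0.24, with a 95% interval from -0.59 to 0.48. Me minus he was -0.66 ± 0.25, with an unadjusted p of 0.0293 in limma and a 2-sided exact permutation p of 0.20, where 3 against 3 arrays allow 0.10 at best.

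The other Cxcr6 probe set, 1425832_a_at, moved mainly with the array set. Its values were 8.17, 7.86, 9.31 and 8.87 in WT 1 to 4, 8.10, 9.13 and 8.86 in he 1 to 3, and 7.92, 8.62 and 7.72 in me 1 to 3. Set A held 7.72 to 8.17 and set B 8.62 to 9.31, with no overlap, and the array set accounted for 85.8% of the sum of squares. Me minus WT was -0.46 ± 0.39 without the block and -0.30 ± 0.13 with it (unadjusted p of 0.0464 in limma), with -0.19 in set A and -0.46 in set B. Once each array set's mean was taken off, the 2 Cxcr6 probe sets went together over the 10 arrays, with a Pearson correlation of 0.94. This is a description, since both probes read the same RNA samples.

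**Figure D2:**
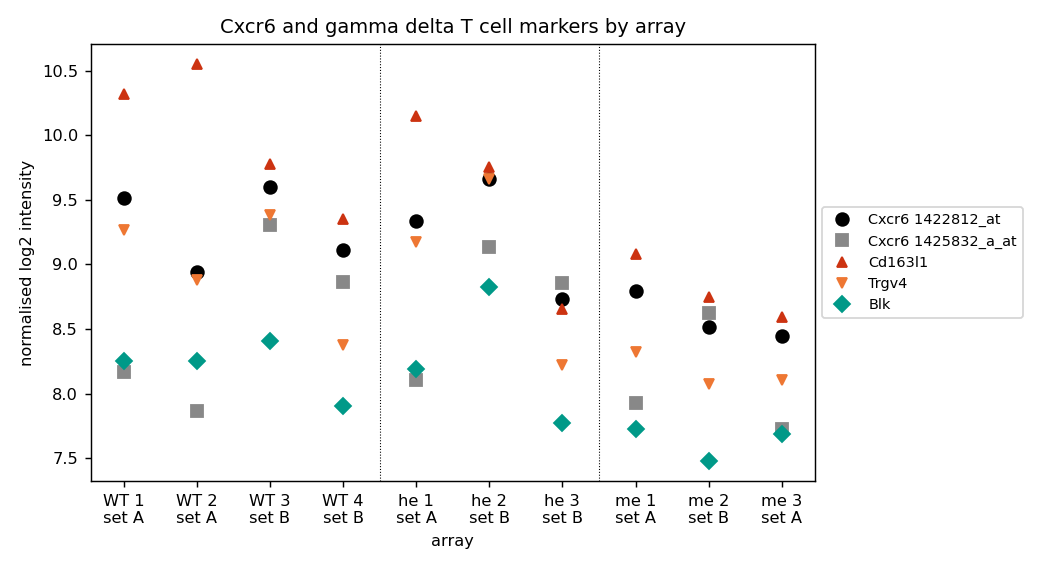
Normalised log2 intensity of both Cxcr6 probe sets and of the gamma delta T cell markers Cd163l1, Trgv4 and Blk in each of the 10 arrays. The 3 me arrays lie below every WT array at Cxcr6 1422812_at and at the 3 markers, and he 3 is the lowest he array at each of these 4.

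Marker genes of innate-like lymphocytes (gamma delta T cells, innate lymphoid cells) split into 3 with lower values in the me arrays and 2 with means near WT. Of the 9 on that list 5 were measured, and 0 of 5 were higher in me than in WT, with a median difference of -0.57. Cd163l1, a scavenger receptor family member found on gamma delta T cells, was 9.35 to 10.55 in WT, 8.65 to 10.15 in he and 8.59 to 9.08 in me, a difference of -1.19 ± 0.38. Trgv4, a variable segment of the gamma chain of the T cell receptor, was 8.37 to 9.38 in WT and 8.07 to 8.32 in me, a difference of -0.81 ± 0.34. Blk, a Src-family kinase of B cells and some gamma delta T cells that is also on the B cell list, differed by -0.57 ± 0.23. Sox13 and Gata3, transcription factors of these and other lymphocytes, overlapped between the groups, with differences of -0.06 ± 0.13 and -0.06 ± 0.22. None of the 5 passed the adjusted threshold. Summed before normalisation, the intensity of the 5 genes was 1975 to 4074 in WT, 1498 to 3788 in he and 1508 to 2178 in me. Their mean normalised log2 intensity was 8.60 to 9.12 in WT, 8.39 to 9.18 in he and 8.31 to 8.52 in me. On that scale the mean of the 5 genes did not overlap between me and WT, although Sox13 and Gata3 taken singly did. Their part in the Cxcr6 difference was not tested.

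The 3 genes whose values over the 10 arrays were most like those of Cxcr6 1422812_at, after the array set means were taken off, were Stxbp6 (Pearson correlation 0.97), 1110002L01Rik (0.96) and Eef1d (0.95). Their differences of me minus WT were -0.23, -0.12 and -0.18.

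Ccr1, a receptor of inflammatory chemokines such as Ccl3 and Ccl5 that is prominent on monocytes and neutrophils, was higher in me arrays at its brighter probe set. The values at 1419609_at were 7.84, 7.45, 7.27 and 7.16 in WT 1 to 4, 7.89, 7.80 and 7.47 in he 1 to 3, and 8.11, 8.11 and 7.71 in me 1 to 3. Me 1 and me 2 were above every WT and he array, while me 3 lay below WT 1, so the groups overlapped. Me minus WT was 0.55 ± 0.18 (1.46-fold; unadjusted p of 0.0153, adjusted p of 1.00 in limma), and 0.52 ± 0.16 with the block. The 2-sided exact permutation test gave p = 0.114. Within the sets the difference was 0.26 in set A and 0.90 in set B, where the me side is the single array me 2. Without me 2 the difference with the block was 0.30.

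The he mean lay between those of WT and me, though the arrays of the 3 groups overlapped: he minus WT was 0.29 ± 0.18 at 1419609_at, with a 95% interval from -0.13 to 0.70, and me minus he was 0.26 ± 0.20, with 0.02 in set A and 0.48 in set B. All 3 me arrays and all 3 he arrays were above the WT mean of their own array set. The second Ccr1 probe set, 1419610_at, lay above only 3.62% of all probe sets, with values from 6.91 to 7.22 over the 10 arrays, and its difference was 0.11 ± 0.08. Ccr1 1419609_at lay above 52.4% of probe sets, so its level was near the middle of the array.

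Neutrophil and monocyte marker lists leaned to higher values in me, with no member past the adjusted threshold. On the neutrophil list 7 of 8 measured genes were higher in me, with a median difference of 0.17. S100a8 and S100a9 encode the subunits of calprotectin. Their values were 7.43 to 8.10 and 7.22 to 7.66 in me against 7.20 to 7.26 and 7.01 to 7.16 in WT. Both probe sets were dim, above 33.3% and 19.3% of all probe sets. On the monocyte and macrophage list 9 of 11 were higher, with a median of 0.09, and Ly86, a partner of a Toll-like receptor homologue, differed by 0.42 ± 0.14. The exceptions were Ms4a7 at -0.12 ± 0.07 and Fcgr1, an Fc receptor, at -0.05 ± 0.14 on the monocyte list, and Ltf, which encodes lactoferrin, at -0.03 ± 0.08 on the neutrophil list. Summed before normalisation, the neutrophil intensities were 1106 to 1307 in WT, 1153 to 1361 in he and 1145 to 1667 in me. The summed monocyte intensities were 5050 to 7472, 4478 to 7423 and 5578 to 7443, so the summed ranges overlapped. By mean normalised log2 intensity the neutrophil list was 7.43 to 7.51 in WT, 7.47 to 7.56 in he and 7.54 to 7.77 in me. On that scale me lay above WT without overlap but overlapped with he. The monocyte list was 7.98 to 8.10, 7.97 to 8.23 and 8.07 to 8.24, with overlap. Their part in the Ccr1 difference was not tested. With the array set means taken off, the genes most like Ccr1 1419609_at were Rmst (Pearson correlation 0.98), Rpap2 (0.96) and Lcn2 (0.95). Their differences of me minus WT were 0.03 ± 0.13, 0.23 ± 0.23 and 0.08 ± 0.05. Lcn2 encodes a protein of neutrophil granules, but its probe set was dim, above only 15.4% of all probe sets.

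Cxcr3, the receptor of the interferon-induced chemokines Cxcl9, Cxcl10 and Cxcl11 and a marker of Treg cells that control type 1 inflammation, was higher in me arrays by 0.60 ± 0.27 (1.52-fold). Its values at 1449925_at were 9.87, 10.14, 9.10 and 9.76 in WT 1 to 4, 9.92, 9.55 and 9.96 in he 1 to 3, and 10.19, 9.96 and 10.81 in me 1 to 3. The highest value was in me 3 and the lowest in WT 3, and WT 2 lay above me 2, so the groups overlapped. The unadjusted p was 0.0543 and the adjusted p 1.00 in limma, and the 2-sided exact permutation p was 0.114. With the block the difference was 0.53 ± 0.21 (unadjusted p of 0.0320 in limma), with 0.49 in set A and 0.53 in set B.

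Part of the Cxcr3 difference was carried by me 3: without it, me minus WT was 0.35. The he arrays were near WT, with he minus WT at 0.09 ± 0.27, and me minus he was 0.51 ± 0.29. All 3 me arrays were above the WT mean of their own array set. Cxcr3 is on chromosome X, and with both array set and sex as blocks the difference was 0.51. Of the CD8 and NK cell markers, cells that also carry Cxcr3, 5 of 9 were higher in me, with a median of 0.11. Summed before normalisation, their intensity was 1677 to 5689 in WT, 1830 to 5441 in he and 1710 to 6146 in me. Their mean normalised log2 intensity was 7.78 to 8.38, 7.85 to 8.33 and 7.80 to 8.49. Eomes, a T-box factor of CD8 and NK cells, was 7.34 to 7.56 in WT and 7.65 to 7.94 in me, whereas Cd8a (-0.60 ± 1.78), Ncr1 (-0.14 ± 0.20), Cd8b1 (-0.09 ± 0.12) and Prf1 (-0.03 ± 0.12) had lower means in me. None of the 9 passed the adjusted threshold, and the part of these cells in the Cxcr3 difference was not tested. With the array set means taken off, the genes most like Cxcr3 were Ina (Pearson correlation 0.97), Ap1g2 (0.97) and Slc52a3 (0.96).

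**Figure D3:**
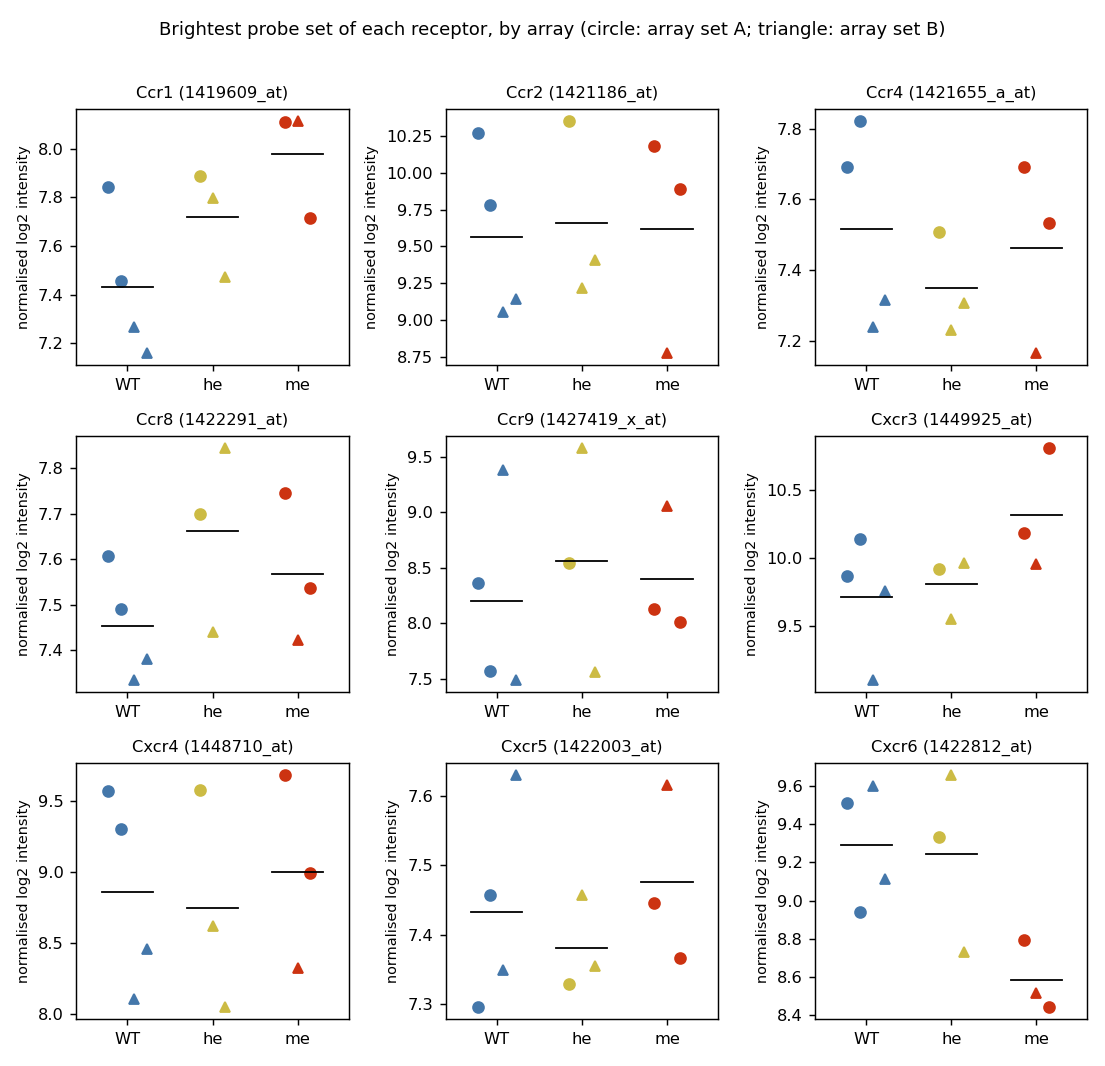
Normalised log2 intensity of each receptor's brightest probe set in the 10 arrays, grouped by genotype, with the array sets marked. The me arrays at Cxcr6 lie below every WT array, with he 3 just below me 1, whereas Ccr2 and Cxcr4 separate the arrays by set within each genotype.

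Ccr8, a receptor enriched on tissue Treg cells, had its 2 highest values in he 3 and me 1. The values at 1422291_at were 7.61, 7.49, 7.33 and 7.38 in WT 1 to 4, 7.70, 7.44 and 7.85 in he 1 to 3, and 7.75, 7.42 and 7.54 in me 1 to 3. He minus WT was 0.21 ± 0.12 without the block and 0.24 ± 0.10 with it (unadjusted p of 0.0401 in limma), and me minus WT was 0.12 ± 0.12. Without he 3 the difference of he minus WT was 0.12. Me minus he was -0.09 ± 0.13.

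Ccr4, the receptor of Ccl17 and Ccl22 that guides Treg cells to skin, and Cxcr5, the follicle-homing receptor, lay below the middle of the array, above 36.4% and 34.9% of probe sets. The Ccr4 values were 7.69, 7.82, 7.24 and 7.32 in WT 1 to 4, 7.51, 7.23 and 7.31 in he 1 to 3, and 7.69, 7.16 and 7.53 in me 1 to 3. The 5 arrays of set A were all above the 5 of set B, by 0.40 on average, and me minus WT was -0.05 ± 0.18. The Cxcr5 values were 7.29, 7.46, 7.35 and 7.63 in WT 1 to 4, 7.33, 7.46 and 7.35 in he 1 to 3, and 7.45, 7.62 and 7.37 in me 1 to 3. They spanned 0.34 in all, and me minus WT was 0.04 ± 0.10, with a 95% interval from -0.18 to 0.26. On the follicular helper T cell list, which holds Cxcr5, 6 of 8 genes were higher in me, with a median of 0.09.

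Cxcr4, the receptor of Cxcl12, and Ccr2, the receptor of Ccl2, varied with the array set much more than with genotype. The Cxcr4 values were 9.57, 9.30, 8.10 and 8.46 in WT 1 to 4, 9.58, 8.61 and 8.04 in he 1 to 3, and 9.68, 8.32 and 8.99 in me 1 to 3. Set A held 8.99 to 9.68 and set B 8.04 to 8.61, so the sets did not overlap; the mean of set B was lower than that of set A by 1.12, and the set accounted for 85.1% of the sum of squares against 0.64% for genotype. Me minus WT was 0.14 ± 0.49 without the block and -0.05 ± 0.19 with it. The values of Ccr2 at its brightest probe set, 1421186_at, were 10.27, 9.78, 9.05 and 9.15 in WT 1 to 4, 10.35, 9.22 and 9.40 in he 1 to 3, and 10.18, 8.77 and 9.89 in me 1 to 3. Set A was again above set B without overlap, B minus A being -0.98, and me minus WT was 0.05 ± 0.43 without the block and -0.12 ± 0.13 with it. Me minus he at 1421186_at was -0.04 ± 0.47 without the block and -0.40 ± 0.14 with it (unadjusted p of 0.0227 in limma), with -0.32 within A and -0.54 within B. The blocked value depended on the set given to me 3: with me 3 placed in set B it was -0.04. Some genes of other cell types also differed between the sets. Cd8a was higher in set B than in set A by 4.45 on average, and H2-Ab1, an MHC class II gene, by 2.41. Other genes of the CD8 and NK list went both ways, while most other B cell and MHC class II genes were higher in set B. As examples by B minus A, Ncr1 (0.35) and Cd22 (0.30) were higher, and Cd8b1 (-0.19), Prf1 (-0.23) and H2-Eb1 (-0.31) lower. With Cd8a included, the mean log2 intensity of the CD8 and NK list was 7.78 to 7.96 in set A and 8.25 to 8.49 in set B. For the B cell and MHC class II list, H2-Ab1 included, it was 7.79 to 8.13 and 8.31 to 8.35. The part of these genes in the receptors' set differences was not tested.

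Of the 4 Ccr2 probe sets, 3 went together over the 10 arrays and 1460067_at did not. Pairs of 1421186_at, 1421188_at and 1421187_at had Pearson correlations of 0.81 to 0.92. At 1421188_at and 1421187_at set B was also lower, by 0.48 and 0.58, but at 1460067_at set B was higher than set A by 0.20, and its correlation with 1421186_at over the 10 arrays was -0.57. Their differences of me minus WT were 0.08 ± 0.22, 0.34 ± 0.26 and 0.17 ± 0.16. With the set means taken off, this grouping was not kept. Then 1421186_at correlated at 0.44 with 1421188_at and at 0.21 with 1421187_at, and those last 2 at 0.07 with each other. The highest pair was 1460067_at with 1421187_at, at 0.54, while 1460067_at stood at -0.33 with 1421186_at and at 0.12 with 1421188_at. Also with the set means taken off, the genes most like Cxcr4 were Ints13, Zscan29 and Secisbp2l (Pearson correlation 0.95 to 0.96). Those most like Ccr2 1421186_at were Cacna1c, BC055324 and Zpbp (0.93 to 0.94).

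Over the 18 probe sets, set A and set B did not overlap at 8, beside 51.4% of all probe sets. The set accounted for 72.7% to 91.8% of the sum of squares at those 8. At the other 10 it accounted for 2.01% to 72.9%.

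**Figure D4:**
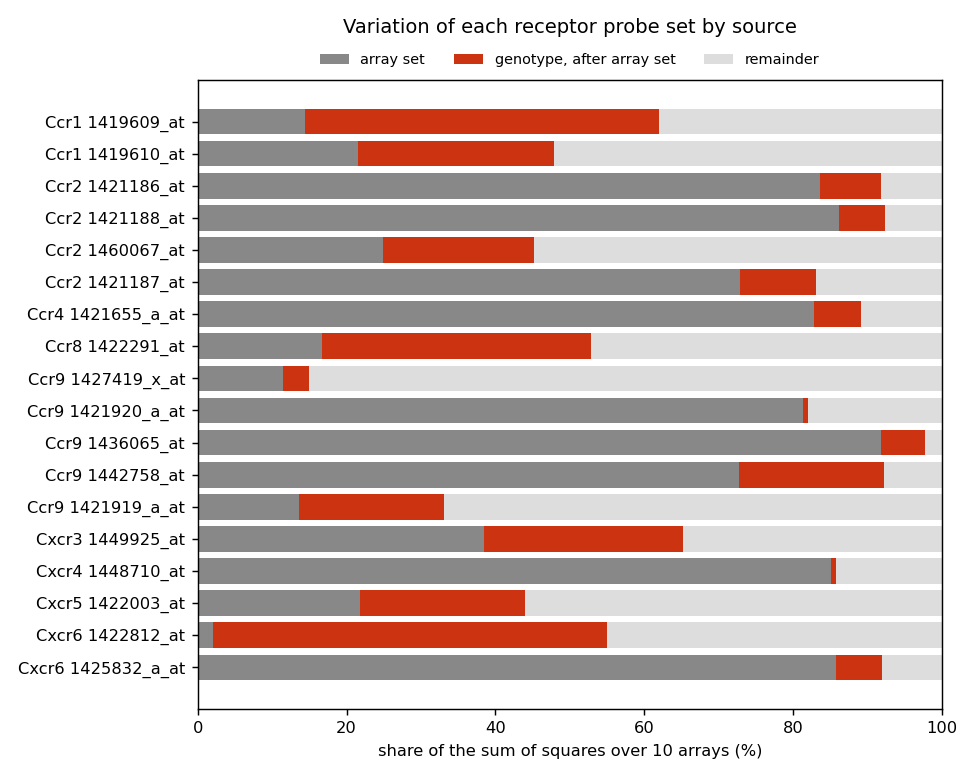
Share of the sum of squares over the 10 arrays that goes with the array set, with genotype after the array set, and with neither, for each receptor probe set. Genotype takes 53.0% at Cxcr6 1422812_at and 0.64% at Cxcr4.

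Ccr9, the receptor of Ccl25 that guides T cells to the small intestine and is carried by many recent thymic emigrants, had the widest range of the 18 probe sets over the arrays. At its brightest probe set, 1427419_x_at, the values were 8.36, 7.57, 9.38 and 7.49 in WT 1 to 4, 8.54, 9.58 and 7.56 in he 1 to 3, and 8.13, 9.06 and 8.02 in me 1 to 3. WT 3, he 2 and me 2, 1 array of each genotype, all of set B, were the highest, and WT 4 and he 3, also of set B, were the lowest. The range was 2.10, and me minus WT was 0.20 ± 0.58, with a 95% interval from -1.11 to 1.51. Neither the array set (11.4% of the sum of squares) nor genotype (3.62%) took more than a small share.

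At 1421920_a_at the same 3 arrays were the highest, with values of 7.71, 7.28, 8.80 and 8.09 in WT 1 to 4, 7.76, 8.74 and 8.28 in he 1 to 3, and 7.38, 8.78 and 7.40 in me 1 to 3. Here the sets did not overlap, and set B was above set A by 1.03. After the set means were taken off, this probe set went with 1427419_x_at at a Pearson correlation of 0.93, while 1436065_at did not, at 0.07. The values at 1436065_at were 7.67, 7.65, 8.64 and 8.51 in WT 1 to 4, 7.57, 8.25 and 8.22 in he 1 to 3, and 7.60, 8.36 and 7.65 in me 1 to 3, and the array set took 91.8% of its sum of squares. He minus WT there was -0.11 ± 0.32 without the block and -0.24 ± 0.06 with it (unadjusted p of 0.00428 in limma), with -0.09 in set A and -0.34 in set B. The 2 dimmest Ccr9 probe sets, 1442758_at and 1421919_a_at, lay above 13.6% and 12.6% of probe sets and spanned 0.32 and 0.25. The differences of me minus WT were -0.12 ± 0.45 at 1421920_a_at, -0.25 ± 0.32 at 1436065_at, -0.06 ± 0.10 at 1442758_at and 0.02 ± 0.07 at 1421919_a_at. At 1442758_at, me minus he was -0.05 ± 0.10 without the block and -0.12 ± 0.05 with it (unadjusted p of 0.0423 in limma).

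With the array set means taken off, the genes most like Ccr9 1427419_x_at were Tmem71, Satb1 and Nrip1, each at a Pearson correlation of 0.97. Satb1, a chromatin organiser of developing and naive T cells, was 11.43 in WT 3, 11.75 in he 2 and 11.39 in me 2, and 9.80 to 10.66 in the other 7 arrays. The same 3 arrays were the highest for Ccr9 1427419_x_at and for Satb1. Satb1 was picked for its likeness to this probe set over these arrays, so the match is a description only. For Satb1, me minus WT was 0.28 ± 0.49. On the list of naive and resting T cell markers, 4 of 6 genes were higher in me than in WT, with a median of 0.01.

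**Figure D5:**
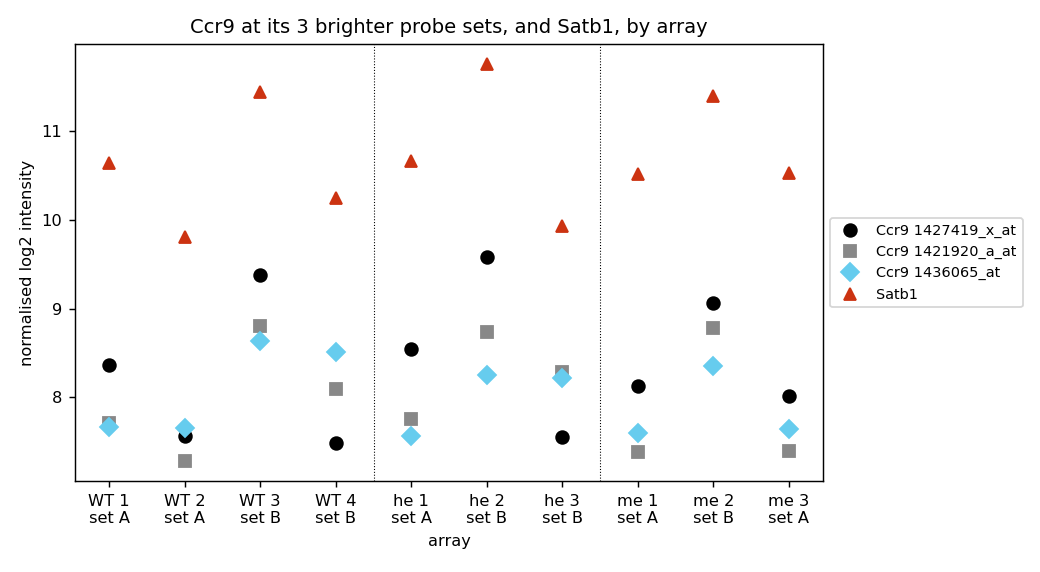
Normalised log2 intensity of Ccr9 at its 3 brighter probe sets and of Satb1 in each of the 10 arrays, with genotype and array set on the horizontal axis. Satb1 was picked for its likeness to Ccr9 1427419_x_at over these arrays. WT 3, he 2 and me 2 are highest at Ccr9 1427419_x_at and at Satb1, while Ccr9 1436065_at separates set A (7.57 to 7.67) from set B (8.22 to 8.64).

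The ligands and the signalling proteins behind these receptors gave no called gene either. Of the members' ligands, 18 were measured, 9 higher and 9 lower in me than in WT, with a median of -0.01. Ccl5, a ligand of Ccr1 that T cells make, was 10.61 to 12.46 in WT and 10.17 to 11.25 in me, a difference of -0.78 ± 0.56. Ccl22, a ligand of Ccr4, differed by -0.49 ± 0.47, Cxcl10, a ligand of Cxcr3, by 0.31 ± 0.37, and Ccl3, a ligand of Ccr1, by 0.15 ± 0.10. For all 4 the groups overlapped. At an unadjusted p under 0.05 none of the 18 passed in limma, with or without the block, beside 4.29% and 0.622% of all probe sets.

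Of the G proteins, kinases, arrestins and other signalling genes downstream, 16 of 25 measured were higher in me, with a median of 0.05; with the block, 11 of 25 were higher. Gnai3, an inhibitory G protein subunit, differed by 0.23 ± 0.12, Rac1, a GTPase of cell movement, by 0.21 ± 0.15, and Grk6, a kinase that desensitises receptors, by 0.17 ± 0.12. Rgs10, which shortens G protein signals, differed by -0.30 ± 0.21. Without the block 0 of 25 passed an unadjusted p under 0.05 in limma, beside 0.622% of all probe sets. With it 1 did in each direction, beside 4.29% of all.

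Of the other chemokine and chemoattractant receptors, 18 were measured, 9 higher and 9 lower in me than in WT, with a median of -0.00. Gpr183, the oxysterol receptor that positions lymphocytes at follicle borders, differed by 0.39 ± 0.47 without the block and by 0.58 ± 0.12 with it. Ccr10, a skin-homing receptor, differed by -0.39 ± 0.32 and, with the block, by -0.50 ± 0.18. Ccrl2, a receptor that binds chemerin, differed by 0.26 ± 0.19, and Ccr7, the lymph node receptor, by -0.14 ± 0.11. With the block, 3 of 18 passed an unadjusted p under 0.05 in limma, beside 4.29% of all probe sets. They were Gpr183, Ccr10 and Cx3cr1 (0.32 ± 0.10 with the block), and none passed after adjustment.

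The markers of the cells isolated were higher in me at 7 of 8 Treg genes (median 0.14) and 7 of 9 T cell genes (median 0.15), and with the block at 5 of 8 and 7 of 9. The largest difference on the Treg list was at Ctla4, 0.68 ± 0.35 and, with the block, 0.58 ± 0.25. Its values were 10.18 to 11.46 in WT and 11.30 to 12.28 in me, with overlap, and it did not pass the adjusted threshold. Foxp3, the defining factor of Treg cells, differed by 0.11 ± 0.28, and Il2ra, which encodes CD25, by -0.23 ± 0.12. Of the B cell and MHC class II genes, 6 of 12 were higher (median -0.02), and of the plasma cell genes 7 of 8 (median 0.16); with the block these were 8 of 12 and 5 of 8. Jchain, the joining chain of secreted antibodies, was 7.02 to 7.11 in WT and 7.96 to 10.14 in me. The lowest deposited intensity on any array was 72.4, so no marker was at 0, and an absent transcript cannot be told from a weak one here.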

How the data were processed

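The deposited values are microarray intensities per probe set on a linear scale, 1 table for all 10 arrays; how the authors summarised and scaled them is not given in the sources used here. The array medians differed by 0.29 on the log2 scale, so log2(intensity + 32) was quantile normalised over all 45101 probe sets. The 64 control probe sets were then left out and 45037 were fitted with limma 3.58.1 (R 4.3.3), 1 mean per genotype over all 10 arrays (7 residual degrees of freedom, or 6 with the array set as a block). P-values were adjusted by Benjamini-Hochberg over all 45037, with a threshold of 0.05. Precision is limited by the number of arrays. In the fit without the block it is limited also by the array set, whose variation stays in the residual spread. Genes were named through GEO's platform annotation (34945 probe sets with 1 gene, 932 with several, 9160 with none), and a gene is represented by its brightest probe set unless a probe set is named. Named genes are all member probe sets, up to 4 genes per list with the smallest p in me against WT, and the 3 genes most like a member. Satb1, Foxp3, Cd4, Il2ra, Gata3, Fcgr1, Ltf, Cd8a, Cd8b1, Ncr1, Prf1, H2-Ab1 and Cx3cr1, where outside that rule, were chosen after their values were seen. The members, lists and tests were chosen with earlier results of these data known. The array sets came from clustering the arrays' correlations (average linkage, 2 sets). Replicate numbers were not taken as pairs. The scripts were tested on simulated data. The alternatives were other pseudocounts (1, 128), a filter on low values, other normalisations and priors, the compared groups alone, blocks, and leaving out each array.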

Additional observations from a re-analysis of the deposited data

How the results depend on the processing

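The directions of me minus WT at Cxcr6 1422812_at (-0.77 to -0.59 over the alternatives, -0.82 to -0.60 leaving out 1 array), Ccr1 1419609_at (0.37 to 0.65, and 0.46 to 0.69) and Cxcr3 (0.51 to 0.64, and 0.35 without me 3 to 0.78 without me 2) held under all settings run, and no receptor passed the adjusted threshold in any. The count of called probe sets in me against WT was 0 and became 3 with the array set as a block (0 with me 3 in the other set). Leaving out 1 array gave 0 to 2 in me against WT and in me against he, 2 being the count without me 2, and 0 to 5 in me against WT with the block. Me minus WT turned its sign at small differences. With the array set as a block it was -0.12 at Ccr2 1421186_at, -0.0079 at Ccr2 1421188_at, 0.051 at Ccr9 1421920_a_at and -0.049 at Cxcr4, and with array set and sex as blocks -0.11, -0.00076, 0.10 and -0.10. With me 3 in the other set it was 0.0077 at Ccr4. He minus WT became -0.063 and -0.083 at Cxcr3 without normalisation and with median centring, and -0.012 and -0.12 at Cxcr6 1425832_a_at with the array set and with array set and sex as blocks. Me minus he at Ccr2 1421186_at became 0.065 without normalisation and 0.10 with median centring.

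Arrays numbered 1, all of set A, deviated together (correlations of 0.90 to 0.94), while those numbered 2 and 3 did not do so throughout (-0.87 to 0.73), so the numbers were not taken as pairs. With the replicate block the count in me against WT was 0, and me minus WT became -0.085 at Ccr2 1421186_at, -0.020 at Ccr2 1421188_at, -0.036 at Ccr9 1427419_x_at and -0.0037 at Ccr9 1421919_a_at, and he minus WT 0.027 at Ccr9 1436065_at.

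Leaving out 1 array in turn, me minus WT ran from -0.23 to 0.48 at Ccr2 1421186_at, -0.047 to 0.30 at Ccr2 1421188_at, -0.17 to 0.10 at Ccr4, -0.13 to 0.60 at Ccr9 1427419_x_at, -0.58 to 0.16 at Ccr9 1421920_a_at, -0.015 to 0.040 at Ccr9 1421919_a_at, -0.20 to 0.48 at Cxcr4 and -0.027 to 0.11 at Cxcr5. He minus WT ran from -0.11 to 0.23 at Cxcr3, -0.26 to 0.20 at Cxcr6 1422812_at, -0.084 to 0.44 at Cxcr6 1425832_a_at and -0.26 to 0.12 at Ccr9 1436065_at. Me minus he ran from -0.33 to 0.38 at Ccr2 1421186_at and -0.11 to 0.029 at Ccr9 1442758_at. The cause of these turns was not tested. Probe sets below the middle of the array (6 of the 18) give little room between signal and background, and 3 or 4 arrays a group limit what could be called.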
